A study of Mus musculus with 18 samples.

Results

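The proteasome subunit genes were taken as all genes of the array whose symbol begins with Psma, Psmb, Psmc, Psmd, Psme, Psmf or Psmg and that a probe set names alone. The rule gave 49 of the 18194 genes on the array, covered by 103 probe sets, and for each gene the brightest probe set on average across the 18 arrays was used. The 49 genes comprised 16 core subunits, 17 subunits of the regulatory particle, the 3 immunoproteasome genes Psmb8, Psmb9 and Psmb10, and 13 others, which are activators, an inhibitor, assembly factors and 2 genes that carry a proteasome name without encoding a subunit (Psmc3ip and Psme3ip1). Psme2 was not among them, because its probe set also names a second gene, Psme2b. The arrays measured total RNA from 3 dissected brain regions of C57BL/6J mice, all male and 14 weeks old, with 3 biological replicates in each of 6 groups. The groups were MPTP frontal cortex, MPTP striatum and MPTP midbrain, and saline frontal cortex, saline striatum and saline midbrain. MPTP is a neurotoxin whose metabolite enters dopamine neurons and is used to model parkinsonism. It was injected intraperitoneally at 30 mg/kg (as the free base) once a day over 5 days, controls received saline intraperitoneally, and tissue was taken 4 days after the last dose from 3 animals per treatment. The model is therefore one regimen and one time point, and each sample is a whole dissected region.

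The proteasome degrades proteins that carry ubiquitin chains. Its core is a barrel of 4 stacked rings, with alpha subunits (Psma genes) in the outer rings, which gate the entrance, and beta subunits (Psmb genes) in the inner rings, of which Psmb5, Psmb6 and Psmb7 encode the catalytic ones. The regulatory particle caps the barrel: its base holds the ATPases (Psmc genes) that unfold substrates, and its non-ATPase subunits (most Psmd genes) bind ubiquitin, remove it or hold the lid together. In immune cells, and in other cells exposed to interferon gamma, Psmb8, Psmb9 and Psmb10 replace Psmb5, Psmb6 and Psmb7, which gives the immunoproteasome and changes the peptides that are made for presentation by class I molecules of the major histocompatibility complex. Impaired proteasome function has long been studied in dopamine neurons and in Parkinson's disease.

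Values are log2 signals, and a difference of 1 is a doubling. A signal of 5.18, the median of all probe sets, was the filter value: a gene was tested if its mean reached it in at least 1 region, and 46 of the 49 members did. Psma8 and Psmb11, core subunits known from testis and thymus, and Psmb9 lay below it on all 18 arrays and were not tested, and Psmc3ip lay below it on 11 arrays. Arrays of one group correlated at 0.991 to 0.997 across probe sets. Their interquartile ranges ran from 3.37 to 3.65, and the narrowest was that of saline midbrain replicate 2, which was also the lowest array of its group for many members. The marker lists were highest in the labelled regions on average: the 4 frontal cortex markers on the array averaged 7.91 to 8.21 in the 6 frontal cortex arrays and no more than 6.09 elsewhere, and the 5 striatal markers averaged 10.8 to 10.9 in striatum and no more than 6.19 elsewhere. The midbrain list averaged 7.66 to 8.26 in midbrain and at most 5.71 elsewhere, but 2 of its members did not mark the region. Pitx3 lay below the filter value, and Nr4a2 averaged less in midbrain (8.002 in MPTP and 8.17 in saline mice) than in striatum (8.51 in MPTP and 8.91 in saline mice) and frontal cortex (8.61 in MPTP and 8.26 in saline mice). Among the midbrain markers Th, the rate-limiting enzyme of dopamine synthesis, stood at a log2 difference of -0.82 between MPTP and saline midbrain without passing the test (adjusted p = 0.133, limma). Here and below, a gene is called higher or lower when its adjusted p from limma, with Benjamini-Hochberg adjustment over 11741 tested genes, is under 0.05, and n is 3 arrays per group.

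The 3 immunoproteasome genes differed in how they were seen in brain. Psmb8 measured 5.84, 5.90 and 6.10 in MPTP frontal cortex and 6.09, 5.88 and 5.84 in saline frontal cortex. All 18 of its values lay between 5.74 and 6.14, and the groups overlapped in every region. Psmb9 lay between 4.68 and 5.15 on all arrays, under the filter value throughout.

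Psmb10 was the immunoproteasome gene with a regional pattern. In striatum it measured 7.57, 7.42 and 7.60 after MPTP and 7.42, 7.60 and 7.69 after saline. In midbrain it measured 8.72, 8.73 and 8.61 after MPTP, against 8.84, 8.69 and 8.85 after saline. In frontal cortex the values were 8.96, 8.93 and 8.95 after MPTP, against 8.998, 8.93 and 9.04 after saline. Every striatal array lay below every array of the other regions, whichever the treatment, and MPTP and saline values overlapped within each region. The constitutive catalytic genes differed less between regions. Psmb5 averaged 10.47 ± 0.0497 in saline striatum and 10.58 ± 0.0733 in saline frontal cortex (SD, n = 3 each), a difference of -0.11 (adjusted p = 0.193, limma), and in MPTP striatum it was lower than in MPTP frontal cortex by -0.27 (adjusted p = 0.00169). Psmb7, the constitutive counterpart of Psmb10, also had its lowest mean in striatum, at 10.64 in MPTP and 10.59 in saline mice, against 10.74 and 10.71 in frontal cortex and 11.09 and 10.95 in midbrain. Its striatal and frontal cortex arrays overlapped. Psmb6 had its lowest mean in frontal cortex, at 9.77 in MPTP and 9.80 in saline mice.

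**Figure D1:**
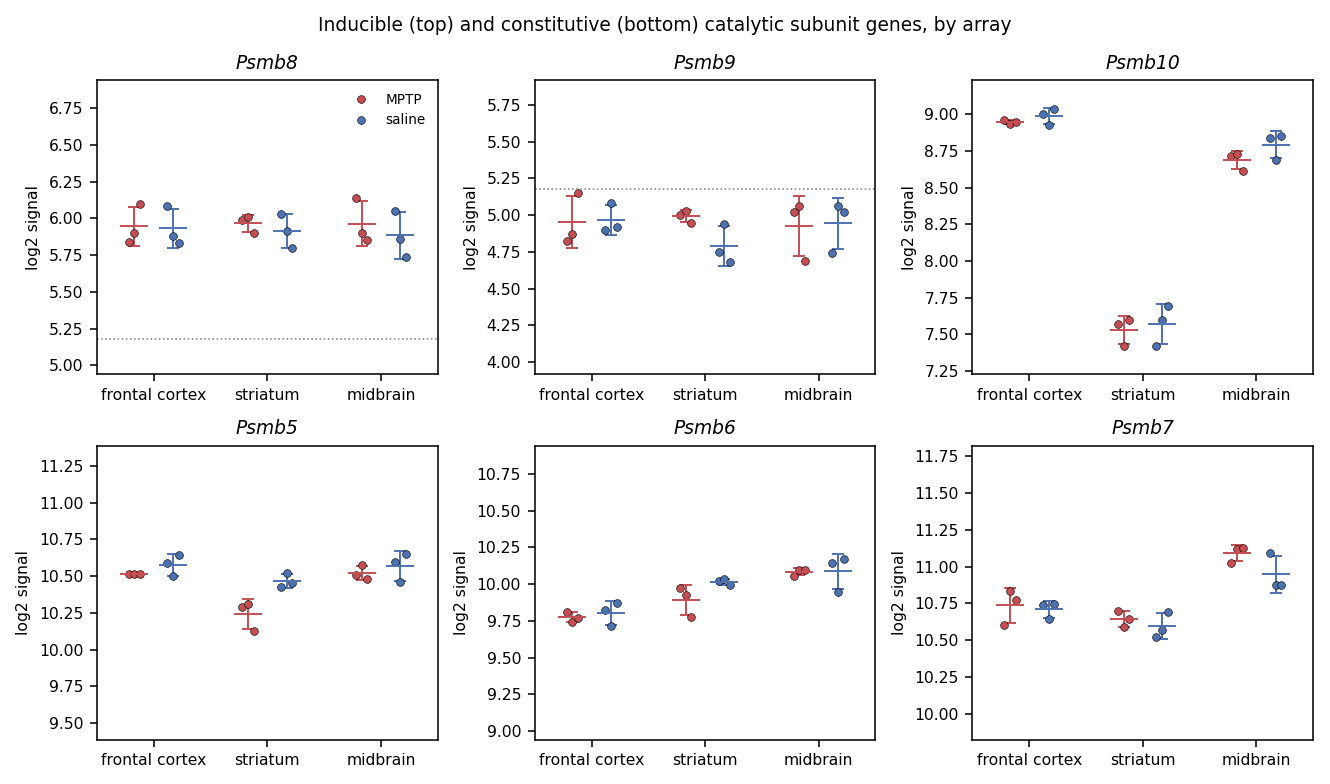
Log2 signal of the inducible catalytic subunit genes (top row) and of the constitutive genes they replace (bottom row) in each array. The x axis gives the region, points are the 3 MPTP and 3 saline arrays, bars are the mean and SD, the dotted line is the filter value of 5.18, and each y axis spans 2 log2 units at the gene's own level. Psmb10 is low in all 6 striatal arrays, Psmb8 is level over the regions and Psmb9 stays under the filter value.

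The genes' places in the genome and the sequences before them are shown because Psmb10, the member with the largest regional difference, and Psmb8, whose regional differences did not pass the test, encode subunits of the same particle. In the RefSeq annotation (mouse assembly GRCm38.p6) Psmb8 lies on chromosome 17 between Tap1 and Tap2, the peptide transporter genes of the major histocompatibility complex, and Psmb9 lies next to Tap1, whereas Psmb10 lies apart from them on chromosome 8, between Ctrl and Lcat. The lines below give 250 bases before and 50 after the annotated start in RefSeq, 5′ to 3′ on the gene's strand, chr8:105938343-105938642 (minus strand) for Psmb10 and chr17:34197945-34198244 (plus strand) for Psmb8. Capitals mark a match to the gamma-activated site TTCNNNGAA, which binds interferon gamma signalling factors, or to the interferon-stimulated response element (GAAA, any 2 bases, GAAA) or the antioxidant response element core TGACNNNGC, each searched on both strands.
Psmb10: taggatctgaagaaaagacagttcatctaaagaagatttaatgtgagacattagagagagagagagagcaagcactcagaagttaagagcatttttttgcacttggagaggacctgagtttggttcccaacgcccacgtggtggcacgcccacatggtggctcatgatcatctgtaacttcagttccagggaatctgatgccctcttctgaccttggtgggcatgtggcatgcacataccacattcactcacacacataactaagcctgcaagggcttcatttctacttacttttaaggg
Psmb8: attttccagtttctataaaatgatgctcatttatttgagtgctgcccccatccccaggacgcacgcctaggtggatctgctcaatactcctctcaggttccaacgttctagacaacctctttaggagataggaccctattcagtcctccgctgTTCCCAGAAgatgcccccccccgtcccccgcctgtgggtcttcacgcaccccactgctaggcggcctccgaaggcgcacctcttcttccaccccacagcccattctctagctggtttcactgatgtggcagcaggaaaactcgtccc

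Psmb8 carried 1 match to the gamma-activated site, at 97 bases before the start, and Psmb10 carried no match to any of the 3 motifs in this window. Over all promoters of the table, 8.3% of 32851 held the gamma-activated site, 3.44% the interferon-stimulated element and 12.4% the antioxidant core. A match is a string of letters and says nothing of use in these tissues.

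The first question of the design was what MPTP did to the proteasome genes in each region. In no region did a single member pass the test. In frontal cortex 0 of 46 members were called, where 0.0681% of all genes were, and 0 had an unadjusted p under 0.05, against 6.13% of all genes. All 46 differences there were under 0.2 in size, as were 89.0% of those of all genes. The median over members was 0.0135 (all genes 0.0376). The member of smallest p was the beta ring gene Psmb2 at 0.17 (adjusted p = 0.842, limma).

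In striatum, where the terminals of dopamine neurons lie, 0 of 46 members were called, against 2.1% of all genes. The unadjusted p was under 0.05 for 7 of the 46 members, a share just under the 16.3% of all genes. Lower after MPTP were all 7, and the share of all genes that were lower at this threshold is not given here. The 7 members were the core genes Psmb5 at -0.22 and Psma7 at -0.16, the regulatory particle genes Psmd3 at -0.22, Psmd4 at -0.20, Psmd13 at -0.20 and Psmd7 at -0.18, and Psme3ip1 at -0.20, with adjusted p from 0.082 to 0.239 (limma). With all probe sets of a gene averaged, Psmd13 stood at 0.00756 (adjusted p = 0.970). Psmb5, which encodes a constitutive catalytic subunit, measured 10.29, 10.31 and 10.13 in MPTP striatum and 10.42, 10.52 and 10.45 in saline striatum, so the groups did not overlap. Of the 46 members 38 had a negative difference, including 16 of the 17 regulatory particle genes, with a median over members of -0.0550 (all genes -0.0330). That median was negative in all 12 settings tried, between -0.0763 and -0.0407. The 38 and the 16 are a description, because members measured on the same arrays are not independent of each other. The median of all genes was negative too, and the share of all genes with a negative difference is not given here. Within groups the median correlation was 0.53 between members and 0.34 between members and other genes. Psmb8 stood at 0.05 and Psmb10 at -0.04, both with intervals that span 0.

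In the same striatal comparison, where 2.1% of all genes were called, 4 of 7 astrocyte markers were called higher, among them Gfap at 1.17 and Vim at 1.01. So were 3 of 8 microglia markers and 3 of 5 oligodendrocyte markers. Aldh1l1, of the astrocyte list, went the other way, averaging 8.34 in MPTP striatum and 8.54 in saline striatum. The mean over the astrocyte list was 9.68 to 9.87 in MPTP striatum, against 9.23 to 9.37 in saline striatum, and over the microglia list 8.03 to 8.31 in MPTP striatum, against 7.85 to 7.97 in saline striatum. Their part in the proteasome values was not tested. In tissue samples fewer cells of a type and less RNA per cell cannot be told apart, which holds for every value here.

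In midbrain, where the dopamine neuron cell bodies lie, 0 of 46 members were called, against 2.54% of all genes. The unadjusted p was under 0.05 for 5 of the 46 members, a share under the 16.6% of all genes. Highest were the alpha ring genes Psma1 at 0.30 (SE 0.0844), Psma5 at 0.28 (SE 0.0800) and Psma6 at 0.28 (SE 0.0850). Their adjusted p values were 0.0598, 0.0606 and 0.0831 (limma). The other tested alpha ring genes did not share this: Psma2 stood at 0.05, Psma3 at 0.06, Psma7 at -0.07 and Psma4 at -0.13. Psmd8, a lid subunit, stood at 0.23 and Psmd4, a ubiquitin receptor, at -0.17. Psma1 measured 9.64, 9.63 and 9.65 in MPTP midbrain and 9.51, 9.14 and 9.38 in saline midbrain. Psma5 measured 9.80, 9.89 and 9.93 in MPTP midbrain and 9.78, 9.41 and 9.59 in saline midbrain. In both genes the groups did not overlap, and the widest gap was to saline midbrain replicate 2.

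The values of Psma1, Psma5 and Psma6 turned on single arrays. Without saline midbrain replicate 2 Psma1 stood at 0.20 (adjusted p = 0.196) and Psma5 at 0.19 (adjusted p = 0.196), and without saline midbrain replicate 1 the 3 genes were called, at adjusted p of 0.00842 for Psma1, 0.00468 for Psma5 and 0.0138 for Psma6 (limma). With all probe sets of a gene averaged, Psma1 stood at 0.19 (adjusted p = 0.290) and Psma5 at 0.10 (adjusted p = 0.548). The probe set of Psma6 is of a kind whose probes also match other sequences, so its signal may be shared. In the same comparison, where 2.54% of all genes were called, 2 of 7 astrocyte markers and 1 of 8 microglia markers were called higher. The astrocyte list means were 10.09 to 10.14 in MPTP midbrain and 9.79 to 10.07 in saline midbrain. Of that list Aldh1l1 averaged lower in MPTP midbrain (8.96) than in saline midbrain (9.12), as did Aqp4 (10.92 and 10.97). The part of these markers in the members' values was not tested. Over the 46 members the median was 0.0170 (all genes 0.0267), which turned to -0.0443 under a second quantile normalization.

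**Figure D2:**
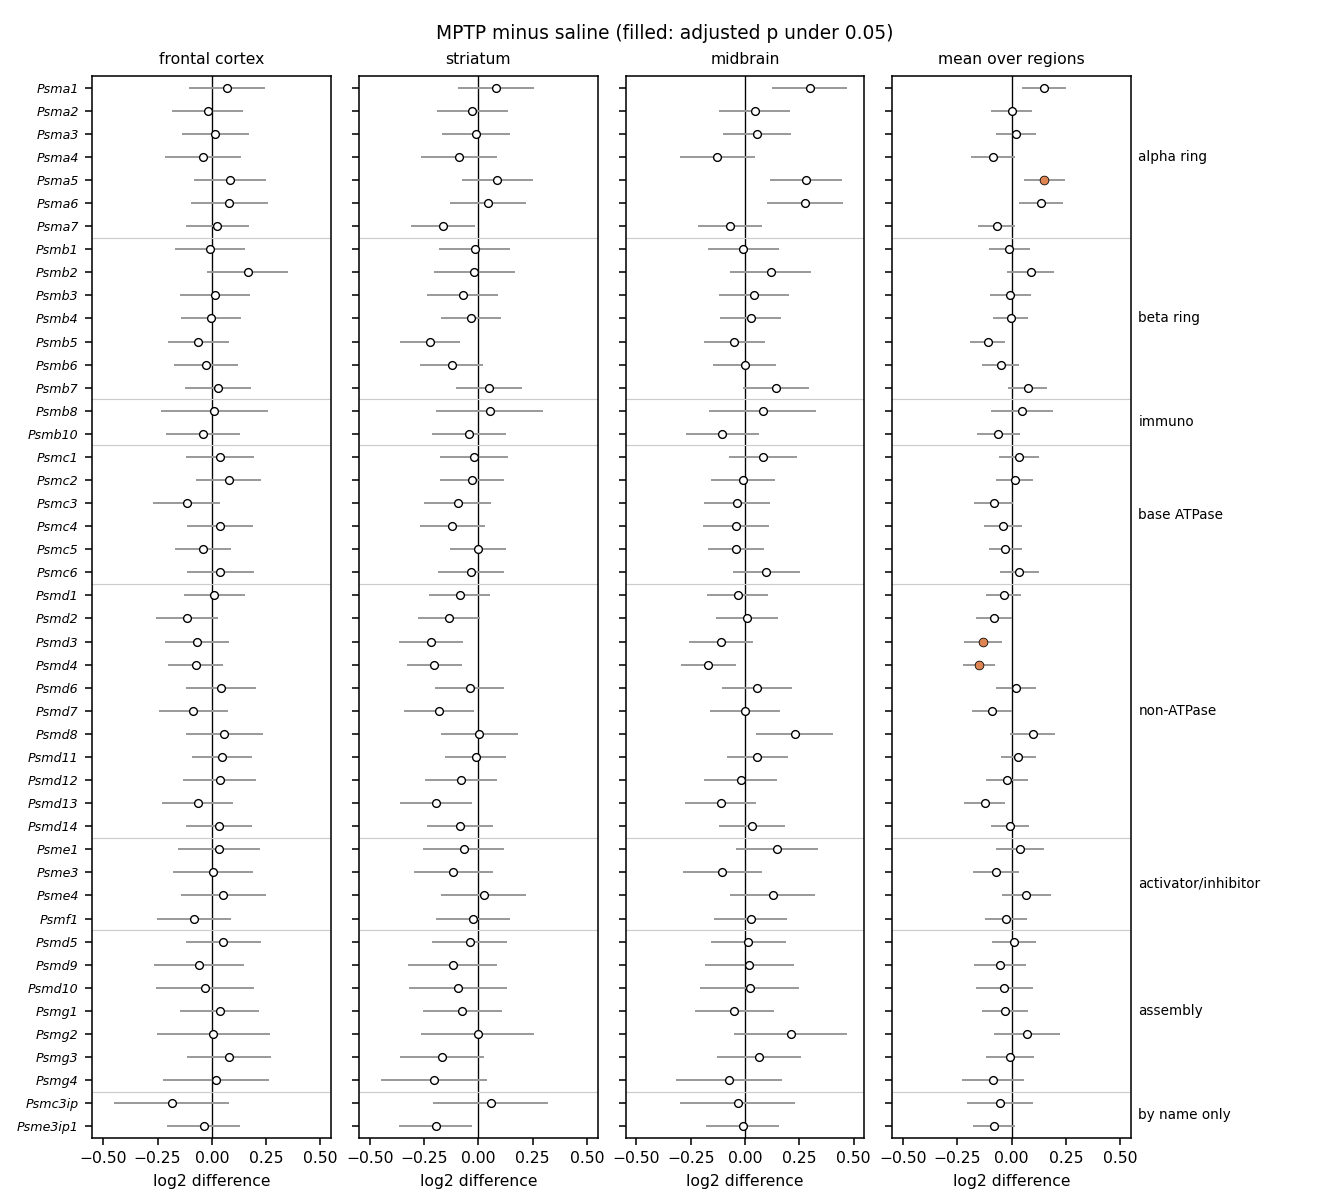
Log2 difference, MPTP minus saline, of the 46 tested members in every single region and averaged over them, grouped by role. Circles are the estimates, lines their 95% intervals, and filled circles the members called at an adjusted p under 0.05. No member is filled in a single region, and Psma5, Psmd3 and Psmd4 are filled in the mean over regions.

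Averaged over the 3 regions, with the animal as a random block, 3 of the 46 members were called. That was 6.52% of them, against 9.04% of all genes, so the share lay under the background. The rise was in 1 member (6.61% of all genes), the alpha ring gene Psma5, and 2 members fell (2.43% of all genes), Psmd4 and Psmd3.

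Psmd4 encodes a receptor that holds ubiquitin chains at the regulatory particle, and it had the smallest p of the members. In striatum it measured 10.07, 10.03 and 10.03 after MPTP and 10.23, 10.26 and 10.26 after saline. In midbrain it measured 10.38, 10.50 and 10.40 after MPTP and 10.63, 10.54 and 10.62 after saline. In frontal cortex it measured 10.30, 10.28 and 10.39 after MPTP and 10.42, 10.33 and 10.44 after saline. The groups were apart in striatum and midbrain and overlapped in frontal cortex. The mean difference was -0.15 (SE 0.0354, adjusted p = 0.00970, limma), which is 1.11-fold lower. Its 2 other probe sets stood at -0.13 (unadjusted p = 0.00996) and -0.10 (unadjusted p = 0.185). The call was kept in 17 of the 18 fits that leave out 1 array and lost without saline striatum replicate 2 (adjusted p = 0.0717), and with the probe sets averaged the adjusted p was 0.0524.

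Psmd3, a subunit of the lid, fell by 0.13 on the log2 scale (SE 0.0418, adjusted p = 0.0485, limma). In striatum it measured 9.02, 9.02 and 8.92 after MPTP, against 9.21, 9.23 and 9.17 after saline, with no overlap, and in the other regions the groups overlapped. Psma5 was higher by 0.15 (SE 0.0464, adjusted p = 0.0433, limma). Its second tested probe set stood at -0.06 (unadjusted p = 0.250), the opposite sign, and with the probe sets averaged Psma5 stood at 0.04 (adjusted p = 0.614). The call of Psmd3 was kept in 6 of the 18 fits that leave out an array and that of Psma5 in 7, with adjusted p up to 0.20 for Psmd3 without saline striatum replicate 2 and up to 0.143 for Psma5 without saline striatum replicate 1. Both calls were also lost without the filter (adjusted p = 0.0618 for Psmd3 and 0.0543 for Psma5) and without the intensity trend (0.0694 and 0.0788). An unadjusted p under 0.05 was found for 7 of 46 members, a share under the 24.3% of all genes. Besides the 3 called, these were Psma1 at 0.15, Psma6 at 0.13, Psmd13 at -0.12 and Psmb5 at -0.11.

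**Figure D3:**
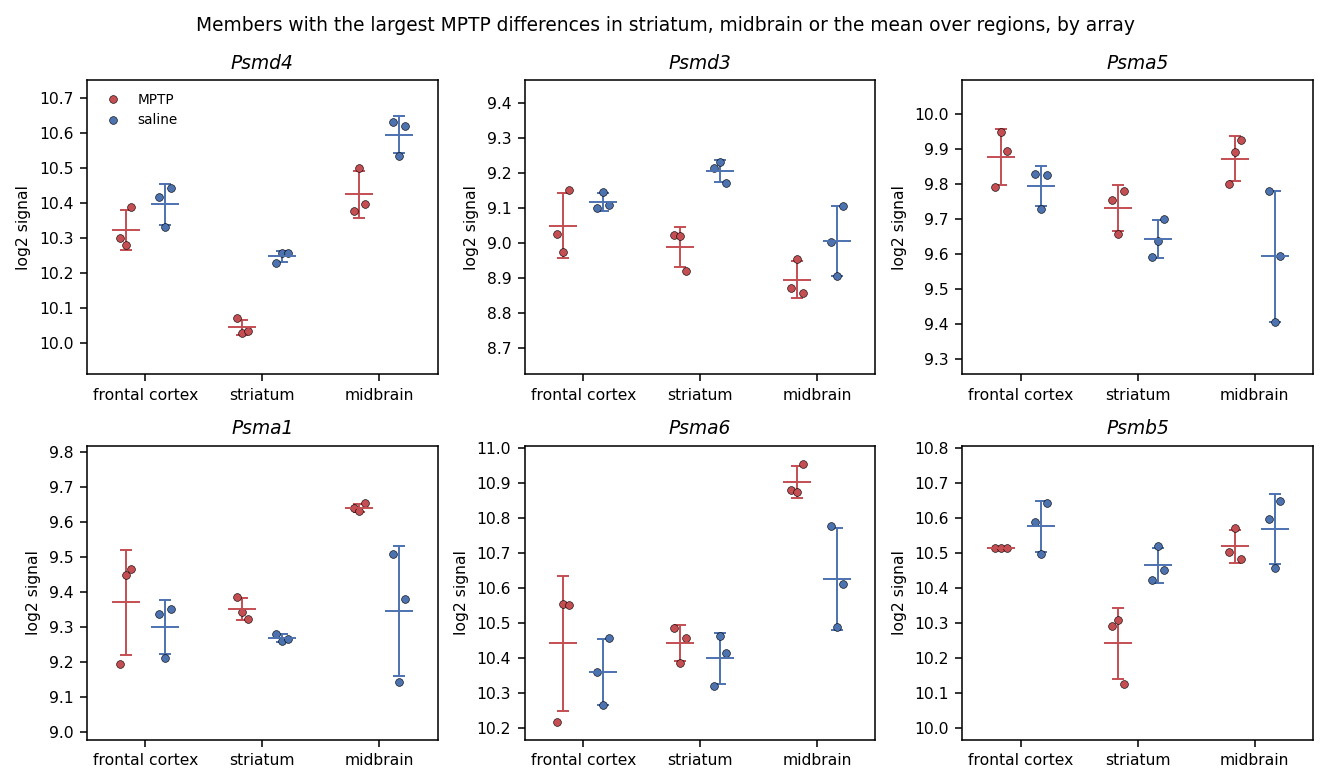
Log2 signal of 6 members with large MPTP differences, by array. The x axis gives the region, points are the 3 MPTP and 3 saline arrays, bars are the mean and SD, and each y axis spans 0.84 log2 units. Psmd4 is lower after MPTP in striatum and midbrain without overlap, and in midbrain the saline arrays of Psma5 and Psma1 are spread more widely than the MPTP arrays.

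Some genes that act around the proteasome passed the test in the same comparisons. Of all genes 2.1% were called in striatum and 2.54% in midbrain. Nfe2l2, a transcription factor that drives antioxidant genes and, under oxidative stress, subunit genes, was called higher in MPTP striatum at 0.44 (SE 0.110, adjusted p = 0.0365, limma) and in MPTP midbrain at 0.44 (SE 0.110, adjusted p = 0.0325), and was the only one of the 6 tested control genes called in either. Nfe2l1, the factor that restores subunit genes when the proteasome is inhibited, stood at -0.15 in striatum (adjusted p = 0.334) and -0.08 in midbrain (adjusted p = 0.635). Of the 5 tested antigen processing genes 2 were called higher in MPTP striatum, B2m at 0.38 (adjusted p = 0.0134) and H2-D1 at 0.39 (adjusted p = 0.0329), the light and a heavy chain of class I molecules, and 0 in MPTP midbrain. Of the 10 tested partners of the proteasome, 1 was called in midbrain: Usp14, a deubiquitinase that docks on the regulatory particle, was higher at 0.34 (adjusted p = 0.0400), and stood at 0.03 in striatum (adjusted p = 0.900). Of 11 ubiquitin and shuttling genes 0 were called in a single region. Ubqln2, a shuttle factor of that list that carries ubiquitinated proteins, was called in the mean over regions at 0.18 (adjusted p = 0.0426), where 9.04% of all genes were called.

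Whether the MPTP effect differed between regions was tested directly. For striatum minus frontal cortex 0 of 46 members were called (0.0596% of all genes), for midbrain minus frontal cortex 0 (0% of all genes) and for midbrain minus striatum 0 (0.0681% of all genes). By an unadjusted p under 0.05 it was 0 of 46 each time, against 7.75%, 4.97% and 5.89% of all genes (limma). Of the 46 differences between the midbrain and the striatal effect 42 were positive, with a median of 0.0959 (all genes 0.0649). Members measured on the same arrays are not independent of each other, so the 42 are a description. The median of all genes was positive too, and the share of all genes with a positive difference is not given here.

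The second comparison was between regions. It was made in the saline arrays, and 46 members entered it. Most members were highest in midbrain, and many were lowest in striatum. The midbrain mean was the highest of the 3 regions for 30 of 46 members (and for 4764 of all 11741 genes), and the striatal mean the lowest for 23 of 46 (4253 of all genes). The differences were small beside those of other genes. For midbrain minus striatum the median size was 0.216 for members and 0.310 for all genes. Sizes under 0.2 were found for 45.7% of members and 35.1% of all genes. In size 5 members exceeded 0.5, which was not counted for all genes. The midbrain arrays serve in both midbrain comparisons below.

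Between saline midbrain and saline striatum 26 of 46 members were called (58.2% of all genes), with 23 higher in midbrain (33.4% of all genes) and 3 lower (24.8% of all genes). The median over members was 0.196 (all genes 0.047), and between 0.103 and 0.229 in all 12 settings. In the core 6 of 14 tested genes were higher and 0 lower. The largest was the alpha ring gene Psma2, with 10.96, 10.67 and 10.85 in saline midbrain and 10.42, 10.37 and 10.32 in saline striatum, a difference of 0.46 (SE 0.0790, adjusted p = 2.41e-05, limma). Psmb7 was higher by 0.35, and Psmb1 by 0.27, a call that was lost with the probe sets averaged (0.09, adjusted p = 0.222). Psmb5 stood at 0.10 (adjusted p = 0.20) and Psmb6 at 0.07 (adjusted p = 0.411).

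In the regulatory particle 9 of 17 genes were higher in saline midbrain than in saline striatum and 1 was lower. Of the 6 base ATPases, which form the ring that unfolds substrates, 5 were higher, and Psmc3, the exception, stood at 0.16. Psmc5 measured 11.33, 11.21 and 11.30 in saline midbrain and 10.67, 10.75 and 10.78 in saline striatum. The difference was 0.55 (SE 0.0623, adjusted p = 6.21e-08, limma). Psmd12, a lid subunit, measured 9.35, 9.17 and 9.28 in saline midbrain and 8.61, 8.65 and 8.57 in saline striatum, a difference of 0.66 (SE 0.0808, adjusted p = 1.94e-07). For both genes the regions were far apart on every array. Psmd3, another lid subunit, was the 1 member of the particle that was lower in midbrain, by -0.20 (SE 0.0719, adjusted p = 0.0199), and it lost the call in 3 of 6 fits that leave out an array.

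Among activators and assembly factors, Psme1, a subunit of the interferon-inducible cap that opens the core without ubiquitin, measured 9.19, 8.83 and 8.96 in saline midbrain, against 8.24, 8.37 and 8.34 in saline striatum. The difference was 0.68 (SE 0.0909, adjusted p = 7.87e-07, limma), or 1.6-fold. Psmf1, an inhibitor that binds the core, was higher by 0.42, and its 2 other tested probe sets stood at 0.46 and 0.47. Of the 7 assembly factors 4 were higher, among them Psmg1, a chaperone of the alpha ring, by 0.52 and Psmd10, a chaperone of the base, by 0.46. Psmg4, also an alpha ring chaperone, went the other way, at -0.39 (adjusted p = 0.00686), and at -0.24 with its probe sets averaged (adjusted p = 0.0362). Psmc3ip, a recombination protein that only bears the name, stood at -0.45 (adjusted p = 0.00426), with saline midbrain signals of 4.84, 5.20 and 4.83, of which 2 lay under the filter value and 1 just above it. It passed the filter only through striatum.

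Psmb10 had the largest regional difference of all members. It was higher in saline midbrain than in saline striatum by 1.22 (SE 0.0821, adjusted p = 5.64e-12, limma), a 2.33-fold difference, and lower in saline striatum than in saline frontal cortex by -1.41 (SE 0.0821, adjusted p = 8.44e-13), a 2.66-fold difference. Saline midbrain lay below saline frontal cortex by -0.20 (adjusted p = 0.0506), which did not pass. Both calls were kept in all 11 other settings and in all 6 fits without an array. Psmb10 has 1 probe set, so no second one could be set beside it.

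Between saline striatum and saline frontal cortex 12 of 46 members were called (44% of all genes), with 4 higher in striatum (20.5% of all genes) and 8 lower (23.5% of all genes). The median over members was -0.0652 (all genes -0.00272). In the core 2 of 14 genes were higher, Psmb2 by 0.27 and Psmb6 by 0.21, and 0 lower. In the regulatory particle 0 of 17 were higher and 5 lower: Psmc3 by -0.36 (adjusted p = 0.000369), Psmd12 by -0.29, Psmc5 by -0.28, Psmd13 by -0.23 and Psmc6 by -0.21 (limma). Psmf1 was lower by -0.40 and Psme1 by -0.23, while Psmg4 was higher by 0.63 and Psmc3ip by 0.46. Psmc3ip passed the filter only through striatum, the region where it was high. Its saline frontal cortex signals of 4.91, 5.01 and 4.91 lay under the filter value. The calls of Psme1, Psmd13 and Psmc6 were the least steady, and were kept in 1, 2 and 2 of 6 fits that leave out an array. With the probe sets averaged Psmd13 stood at -0.09 (adjusted p = 0.330), Psmc6 at -0.19 (adjusted p = 0.176) and Psmg4 at 0.37 (adjusted p = 0.00298). The difference between the core and the regulatory particle was not itself tested.

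Between saline midbrain and saline frontal cortex 23 of 46 members were called (51.3% of all genes), 20 higher in midbrain (27.8% of all genes) and 3 lower (23.6% of all genes). The median over members was 0.149 (all genes 0.022). The core had 8 of 14 genes higher, led by Psmb2 at 0.31, Psma2 at 0.30, Psmb6 at 0.28 and Psmb1 at 0.28, and Psma5 lower at -0.20. The regulatory particle had 8 of 17 higher, led by Psmd12 at 0.37, Psmc2 at 0.27, Psmc5 at 0.26 and Psmd1 at 0.25, and Psmc3 lower at -0.20. Psme1 was higher by 0.44 (SE 0.0909, adjusted p = 0.000229, limma), Psmg1 by 0.42, Psmd10 by 0.34 and Psmd5, a chaperone of the base, by 0.33. Psme4, an activator that caps the core without ATP, was lower by -0.37 (adjusted p = 0.00215). With the probe sets averaged the calls of Psmb1 (0.12, adjusted p = 0.130), Psmc2 (0.14, adjusted p = 0.0732), Psme4 (-0.14, adjusted p = 0.0877) and Psma5 (-0.07, adjusted p = 0.42) were lost. The calls of Psma5 and Psmc3 were kept in 2 and that of Psmd10 in 4 of 6 fits that leave out an array.

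**Figure D4:**
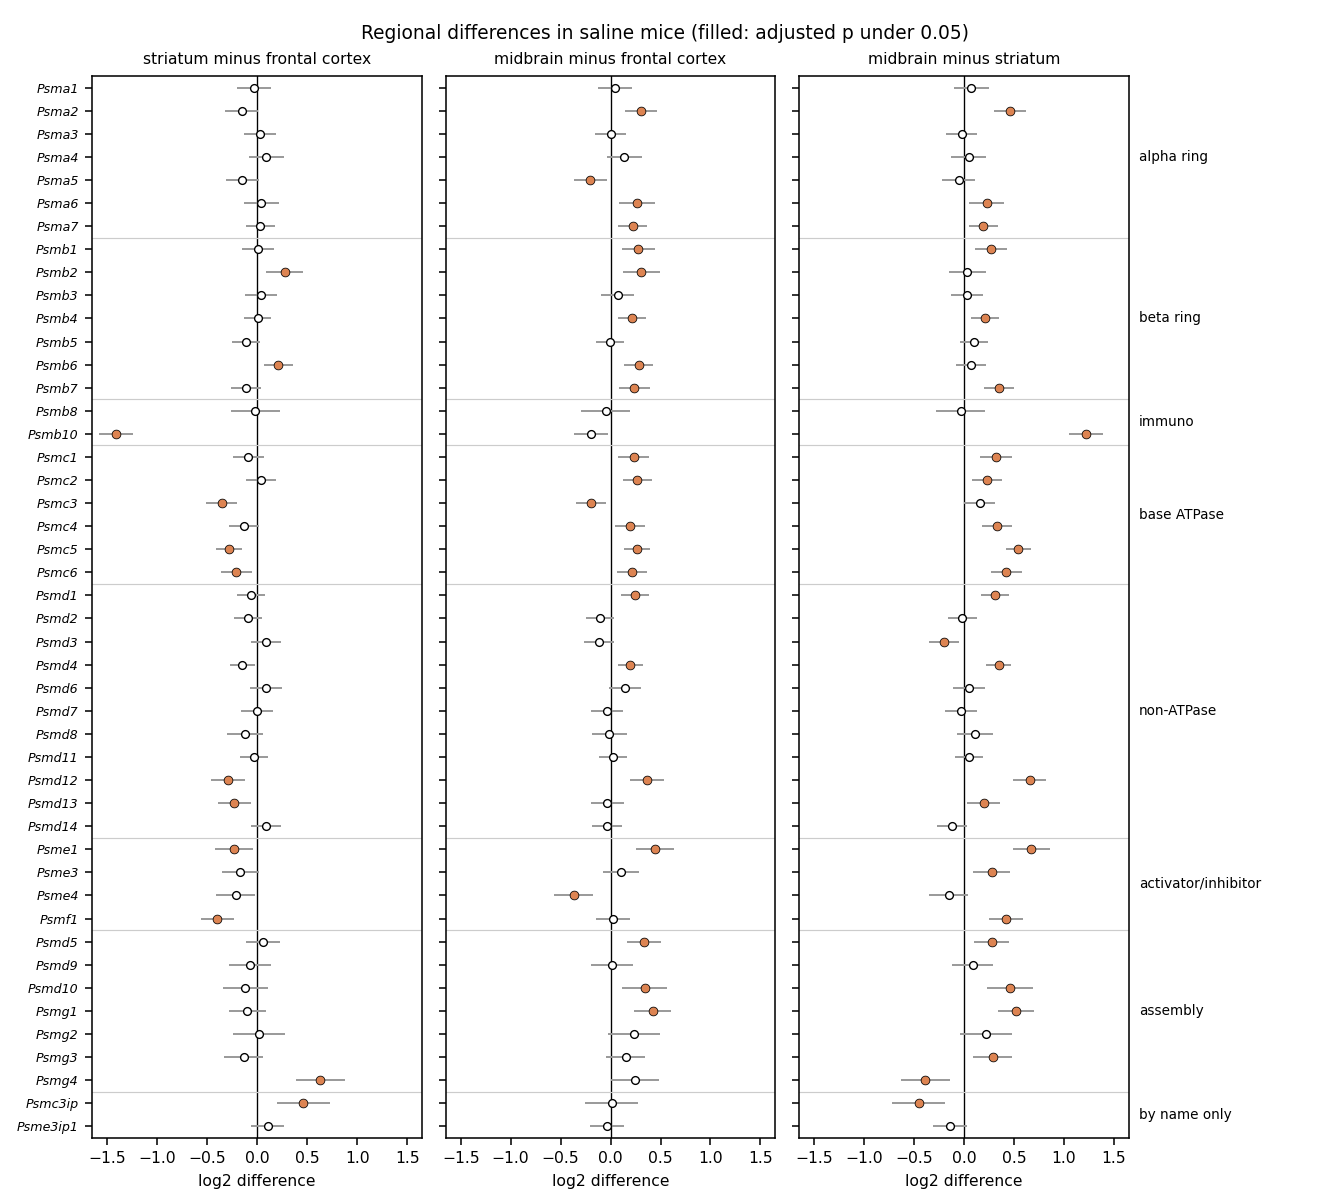
Log2 differences between regions in saline mice for the 46 tested members, grouped by role. Circles are the estimates, lines their 95% intervals, and filled circles the members called at an adjusted p under 0.05. Psmb10 stands apart in both comparisons with striatum, and most filled circles of the 2 midbrain comparisons lie right of 0.

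Cell type markers differed between the same arrays. All 5 oligodendrocyte markers tested were higher in saline midbrain than in saline striatum, with list means of 11.0 to 11.1 in saline midbrain and 10.5 to 10.6 in saline striatum, and 9.16 to 9.44 in saline frontal cortex. Of 8 microglia markers 7 were lower in saline midbrain than in saline striatum, with list means of 7.07 to 7.36 in saline midbrain, 7.85 to 7.97 in saline striatum and 7.48 to 7.62 in saline frontal cortex. Of 7 astrocyte markers 5 were higher and 2 lower, and of 6 neuronal markers 3 were higher and 2 lower. Of all genes 33.4% were called higher and 24.8% lower in saline midbrain than in saline striatum. Lymphocyte markers averaged 4.56 to 4.87 over the saline arrays, under the filter value, with 0 of 3 tested called in any saline comparison. Between 44% and 58.2% of all genes were called in those comparisons. The part of cell composition in the regional values was not tested.

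Antigen processing genes were called between the same regions. Of the 5 tested all 5 were higher in saline midbrain than in saline striatum (33.4% of all genes), by 0.92 for H2-D1 (adjusted p = 1.66e-08), 0.62 for B2m (adjusted p = 3.01e-07), 0.52 for Tap2, 0.40 for H2-K1 and 0.38 for Tapbp (limma). H2-D1 and H2-K1 belong to a family of near copies, and their probe sets may read more than 1 of them. In saline striatum 3 of 5 were lower than in saline frontal cortex, B2m by -0.65, H2-D1 by -0.44 and Tapbp by -0.31, and 0 higher. Tap1, Erap1 and Nlrc5 did not pass the filter. Of 10 partners of the proteasome 3 were higher and 2 lower in saline midbrain than in saline striatum, shares near those of all genes (33.4% higher and 24.8% lower). Uchl5, a deubiquitinase of the regulatory particle, was higher by 0.90 (SE 0.0911, adjusted p = 8.76e-09), Usp14 by 0.35 and the core assembly factor Pomp by 0.28, while Akirin2, which brings the proteasome into the nucleus, stood at -0.41 and the small lid subunit Sem1 at -0.21. In saline striatum Uchl5 was lower than in saline frontal cortex by -0.71 and Usp14 by -0.42. Of the 6 tested control genes Nfe2l2 alone was called between saline midbrain and saline striatum, higher by 0.55, and of 11 ubiquitin and shuttling genes 3 were higher and 3 lower, again near the shares of all genes.

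The regional differences were then read in the MPTP arrays, which come from other animals. This reading was added after the saline values were seen. Of the 12 members called between saline striatum and saline frontal cortex, 12 had the same sign in the MPTP arrays and 10 were called there too, among 16 called in all (49.2% of all genes). Of the 23 called between saline midbrain and saline frontal cortex, 23 had the same sign and 18 were called, among 21 (54.3% of all genes). Of the 26 called between saline midbrain and saline striatum, 26 had the same sign and 24 were called, among 30 (59.1% of all genes). The shares in brackets are of genes called in the MPTP arrays. How many of all genes called in the saline arrays kept their sign was not counted. Whether the agreement is particular to the members is therefore not known. Psmb10 was lower in MPTP striatum than in MPTP frontal cortex by -1.41 (adjusted p = 5.87e-13, limma) and higher in MPTP midbrain than in MPTP striatum by 1.16 (adjusted p = 1.38e-11). Psme1 was higher in MPTP midbrain than in MPTP striatum by 0.89, Psmd12 by 0.72 and Psmc5 by 0.50. Psmb10 was also called lower in MPTP midbrain than in MPTP frontal cortex, by -0.26 (adjusted p = 0.0102).

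**Figure D5:**
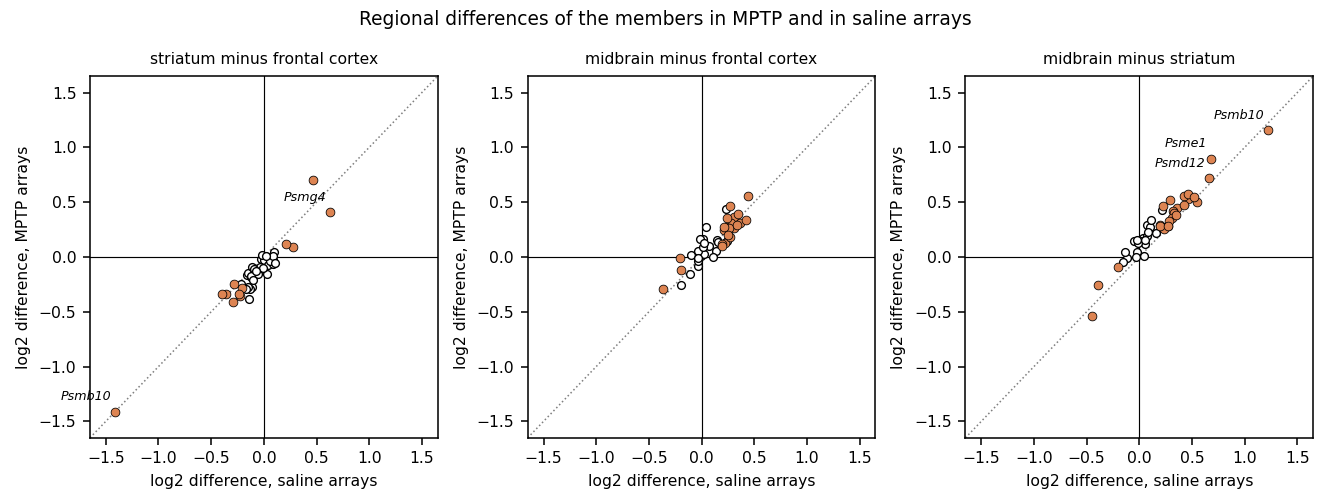
Regional log2 differences of the 46 tested members in saline arrays (x axis) and MPTP arrays (y axis), 1 panel per pair of regions. Filled circles are the members called in the saline arrays, the dotted line marks equal differences, and members beyond 0.6 in the saline arrays are named. All filled circles lie in the quadrants of equal sign, and Psmb10 lies at the far end of both comparisons with striatum.

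The promoters of 3 more members are shown for the differences described above: Psme1 and Psmd12 between midbrain and striatum, and Psmd4 between MPTP and saline. They lie at chr14:55578244-55578543 (plus strand) for Psme1, chr11:107479278-107479577 (plus strand) for Psmd12 and chr3:95042565-95042864 (minus strand) for Psmd4 in GRCm38.p6, taken from RefSeq as above. Capitals mark the interferon-stimulated element in Psme1 and Psmd4 and the antioxidant core in Psmd12, all read from the opposite strand.
Psme1: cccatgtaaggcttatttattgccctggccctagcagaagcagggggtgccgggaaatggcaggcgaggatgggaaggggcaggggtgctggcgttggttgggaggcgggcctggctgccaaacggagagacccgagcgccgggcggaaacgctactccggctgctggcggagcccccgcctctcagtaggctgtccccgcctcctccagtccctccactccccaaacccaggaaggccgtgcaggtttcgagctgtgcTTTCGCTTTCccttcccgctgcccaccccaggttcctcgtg
Psmd12: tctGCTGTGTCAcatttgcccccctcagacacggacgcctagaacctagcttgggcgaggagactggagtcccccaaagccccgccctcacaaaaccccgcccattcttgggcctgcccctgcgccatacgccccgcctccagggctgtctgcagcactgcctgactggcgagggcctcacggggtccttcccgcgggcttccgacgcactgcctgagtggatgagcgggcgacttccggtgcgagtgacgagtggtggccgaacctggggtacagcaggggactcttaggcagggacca
Psmd4: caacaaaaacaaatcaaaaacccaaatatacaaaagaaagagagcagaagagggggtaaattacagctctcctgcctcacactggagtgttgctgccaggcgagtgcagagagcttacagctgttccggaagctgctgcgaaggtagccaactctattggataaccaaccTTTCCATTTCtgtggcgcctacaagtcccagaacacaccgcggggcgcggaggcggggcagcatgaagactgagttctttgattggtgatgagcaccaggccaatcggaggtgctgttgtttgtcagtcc

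Of the 49 members 41 had a promoter in the table. The antioxidant core was found in 6 of them (14.6%, against 14.0% of all genes with a promoter), the interferon-stimulated element in 5 (12.2%, against 3.99%) and the gamma-activated site in 3 (7.32%, against 9.55%). The 5 with the interferon-stimulated letters were Psmb3, Psmd4, Psmd9, Psme1 and Psmg4, of which Psme1 and Psmd4 were called higher and Psmg4 lower in saline midbrain than in saline striatum, and Psmb3 and Psmd9 were not called (58.2% of all genes were called in that comparison). The 6 with the antioxidant core were Psmb5, Psmb6, Psmc6, Psmd9, Psmd12 and Psme4.

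Other probe sets of the members gave a check within the arrays. There were 54 of them, and 28 reached the filter value. Of those that belonged to called members, 13 of 15 had the sign of the chosen probe set for saline midbrain minus saline striatum, 9 of 12 for saline midbrain minus saline frontal cortex, 5 of 6 for saline striatum minus saline frontal cortex and 2 of 3 for the mean MPTP effect. Of those with the same sign an unadjusted p under 0.05 was reached by 7, 3, 4 and 1 in the same order of comparisons, and by none of opposite sign.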

How the data were processed

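The deposited values were log2 probe set signals made by the authors with RMA, per the submitters' processing notes. Its version is not given in the sources used here. The method subtracts background and is meant to give all arrays a common distribution, so a shift shared by every gene would not be seen. The deposited probe set values still differed between arrays, with medians from 5.14 to 5.21 and interquartile ranges from 3.37 to 3.65. Base 2 was inferred from the span of the deposited values. Symbols came from the platform annotation, updated by Entrez ID (GRCm38.p6). The members, lists and naming rule were chosen with earlier results of these data known. The named genes were Psmb5 to Psmb10 and Psme1 throughout, the called members (where over 12, the 4 largest each way in the core, the regulatory particle and the others) or the 5 of smallest p, and called members of the lists. Limma 3.58.1 (R 4.3.3) was fitted with 6 group means over 18 arrays and an intensity trend, and adjusted by Benjamini-Hochberg over 11741 genes. For the mean over regions replicate number within treatment stood for the animal as a random block (estimated correlation 0.00558). The other comparisons, including those between regions, had no such block in the reported fit and treated the arrays as independent. That a number means 1 animal is not stated in the labels, and same-numbered arrays deviated together only in part: the correlation of their deviations from group means was over 0.1 in 11 of 18 pairs of regions, including all pairs of saline frontal cortex with saline midbrain and of MPTP striatum with MPTP midbrain, and in 3 of 9 pairs of treatments. The procedure was tested on simulated data with planted differences of 0.5 or more and noise drawn independently for each gene. No member differed by more than 0.5 between MPTP and saline in a region, and members covaried. The simulation therefore cannot say how well differences of the members' size are found. With 3 arrays per group, array number limits the precision. No sequence of a protein was used.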

Additional observations from a re-analysis of the deposited data

How the results depend on the processing

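Counts below are members called of 46. For MPTP minus saline in striatum (0 in the reported fit) a second quantile normalization gave 4, array weights 2 and the interquartile range as a covariate 3, all lower. For midbrain (0) a filter at the 75th percentile gave 2, quantile normalization 5, centring on the median 2, array weights 4 and the interquartile range 4. For the mean over regions (3) no filter gave 1, quantile normalization 14, of which 12 were lower, no intensity trend 1, array weights 8 and the interquartile range 7. For saline striatum minus saline frontal cortex (12) array weights gave 19. The cause of these changes was not tested. The share of all genes called under each of these settings is not given here, so the counts cannot be set against a background. Whether a share lay over or under the background is stated for the reported fit only. With a replicate block, which has no basis in the labels, the counts were 0 in frontal cortex, 0 in striatum, 0 in midbrain, 2 for the mean, and 12, 23 and 26 for the saline comparisons striatum minus frontal cortex, midbrain minus frontal cortex and midbrain minus striatum; Psmd3 lost its call for the mean (adjusted p = 0.0552), and the block changed no other count. Leaving out 1 array at a time gave 0 to 0 in frontal cortex and striatum, 0 to 3 in midbrain (3 without saline midbrain replicate 1), 0 to 6 for the mean (0 without saline striatum replicate 2 and 6 without saline midbrain replicate 2), 9 to 14, 16 to 26 and 22 to 30 for the saline comparisons, and 0 for the differences between regional effects. No called value of a named member changed sign in any of these fits. The fit on the compared regions alone has no form for the mean over regions.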
